A study of Schizosaccharomyces pombe with 3 samples.

Results

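The unadapted eca39 deletion strain of the fission yeast Schizosaccharomyces pombe was compared with wild type, with 1 Affymetrix expression array for each. Eca39 is the aminotransferase that moves the amino group between branched-chain amino acids (isoleucine, leucine and valine) and their keto acids, the closing step of their synthesis. A named gene was kept if its levels on these arrays were 1.5-fold or more apart and its higher log2 level was no lower than 9.82, the 30th percentile of the whole table. This left 91 of 2899 named genes, of which 78 were higher and 13 lower in the deletion culture. A gene is called higher or lower below only if it passed this size rule.

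The deletion culture was strain SpHT257-1, of h- mating type, in which kanMX4 replaces eca39. An adapted culture of the same strain had first grown beside wild-type cells on an EMM2-N plate with 15 mM glutamate and 2 mM of each of the 3 amino acids. Its values are given beside the comparison, and it does not share its plate history with the other cultures. The wild-type culture was the prototroph SpHT219, also h-, and it and the unadapted deletion strain were inoculated from YE plates. Before RNA extraction every culture, the wild type included, was grown to an optical density of about 1 in liquid YE to which the same 3 amino acids had been added, so the mutant was supplied with the amino acids its missing enzyme makes. Each group is 1 strain and, as far as the labels say, 1 culture on 1 array. No value therefore has a replicate error or a p-value, and precision is limited by that number of arrays.

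As background, fission yeast takes up amino acids and ammonium through permeases whose genes respond to the nitrogen supply. Amino acid shortage is sensed partly through uncharged transfer RNA, which activates the kinase Gcn2, and phosphorylation of the initiation factor eIF2 then lowers general translation while genes of amino acid synthesis stay active. In budding yeast, mitochondrial branched-chain amino acid metabolism is tied to iron-sulfur cluster assembly, since an enzyme of leucine synthesis carries such a cluster and a leucine precursor takes part in signalling iron status.

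The deleted gene was read first. The eca39 probe set read 6.12 in the deletion, 6.37 in the adapted and 14.60 in the wild-type culture, at the 4.20th percentile of the deletion array and the 97.4th of the wild-type array. The difference of -8.48 is a lower bound on the loss, because both mutant readings lie near the bottom of the scale. The markers of mating type were weak guides in these growing cells. Of 6 genes of M-type cells, the type of both strains, mfm2 stood at 12.35 in the deletion, 13.30 in the adapted and 12.31 in the wild-type culture, and the other 5 lay at 7.46 to 9.94 in the deletion and 6.59 to 9.68 in the wild-type culture. Of 4 P-type genes, map1, map2 and map3 reached at most 8.15 in the deletion and 8.38 in wild type, while sxa1 was bright at 12.96 on both arrays.

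Most features differed little between the arrays, and of all 2899 named genes 1266 lay above 0 and 1287 below. Among 3569 features at the brightness limit the median difference was -0.0066, and the central 90% lay between -0.33 and 0.63. The share of features that passed the size rule was 5.52% higher (197) and 0.616% lower (22). Among the 2123 named genes at the limit it was 3.67% higher and 0.612% lower. These named-gene shares are the background for the counts of gene list members below. The lists were chosen with earlier results of these data known, so a list share above the background is a description only. Counts over all measured members include dim ones that could not be called, so such shares read low against this background. Groups sorted by role hold called genes only, so they have no measured total and cannot be set against it. At 2-fold the shares of features were 2.3% higher and 0.0841% lower, and those of named genes 1.27% higher (27) and 0.0942% lower (2). Of 1446 probe sets without a single gene name 8.23% were higher and 0.622% lower, or 3.8% and 0.0692% at 2-fold. The higher calls were spread over the brightness range, with 3.70%, 2.40%, 3.33% and 4.93% of named genes higher over 4 equal groups of features at the limit, from dimmest to brightest. The lower calls lay more in the dimmer groups, at 0.97%, 1%, 0.21% and 0.32% of named genes in the same order. Over all features the higher shares were 7.50%, 3.92%, 4.48% and 6.17%. The median absolute difference of features at the limit was 0.11. That is a spread over features, which includes differences of exactly 0, and with 1 array per group it does not measure the error of a single gene.

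**Figure D1:**
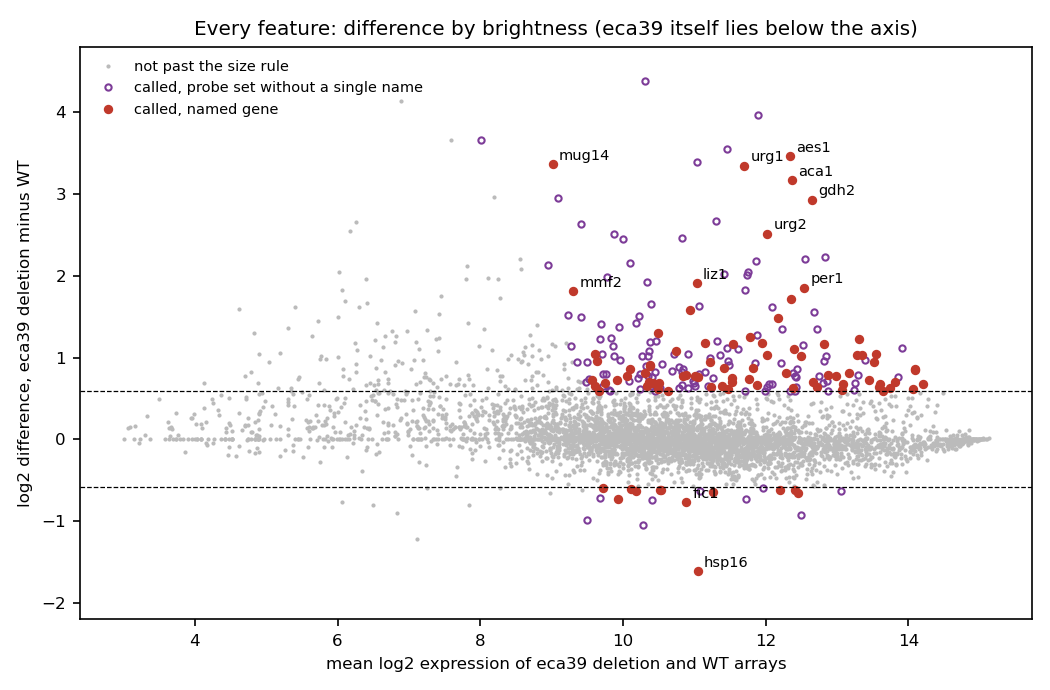
Each point is 1 named gene or 1 unnamed probe set, with the mean log2 level of the deletion and wild-type arrays on the x axis and the log2 difference (deletion minus wild type) on the y axis, and dashed lines at 1.5-fold. The 78 named genes that were higher lie across the brightness range, eca39 lies below the axis, and hsp16 is the lowest named gene drawn as called, at -1.62. Grey points beyond the dashed lines did not reach the brightness limit.

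Genes of amino acid synthesis made up 12 of the 78 higher genes, and they covered several pathways rather than the branched-chain pathway alone. Arginine genes were the most numerous. The list of arginine synthesis and use held 6 higher genes of 11 measured, all 11 of them at the brightness limit, with a median difference of 0.70 against 0 over all features.

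The arginine genes that were higher belong to several steps. Acetylornithine aminotransferase, encoded by arg1, makes the ornithine precursor, and its gene read 14.16 in the deletion, 13.94 in the adapted and 13.46 in the wild-type culture. Carbamoyl phosphate is made by a pair of subunits, of which the large one, arg4, read 14.07 in the deletion, 13.73 in the adapted and 13.03 in the wild-type culture and the small one, arg5, read 13.87 in the deletion, 13.62 in the adapted and 12.84 in the wild-type culture. These differences were 2.07-fold and 2.04-fold, and in each case the wild-type array was lowest and the adapted array in the middle. Ornithine carbamoyltransferase, encoded by arg3, joins ornithine to carbamoyl phosphate, and arg3 read 12.41 in the deletion, 11.95 in the adapted and 11.16 in the wild-type culture, a 2.39-fold difference. Argininosuccinate synthase, encoded by arg12, read 14.52 in the deletion, 14.32 in the adapted and 13.66 in the wild-type culture. For all 5 genes the adapted array lay between the deletion and wild-type arrays, whose order the size rule fixed.

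Other steps of the pathway did not pass the rule. The argininosuccinate lyase gene arg7 had a difference of 0.41 and the acetylglutamate synthase gene arg6 one of 0.41, and arg11, for the kinase and reductase that follow, stood at 0.09. On the side of breakdown, the arginase gene car1 was higher, with 13.40 in the deletion, 12.54 in the adapted and 12.24 in the wild-type culture, a 2.24-fold difference. The ornithine aminotransferase gene car2, near the top of the scale at 14.91 in the deletion and 14.79 in wild type, had a difference of 0.11, and aru1 stood at -0.07.

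Lysine and histidine genes were also among those called. In the lysine list 2 of 5 measured genes were higher, namely lys1, for the reductase of aminoadipate, at 13.37 in the deletion, 13.00 in the adapted and 12.60 in the wild-type culture, and lys3, for a saccharopine dehydrogenase, at 14.54 in the deletion, 14.35 in the adapted and 13.86 in the wild-type culture. The homocitrate synthase gene lys4 lay just under the threshold at 0.57. In the list of histidine and aromatic genes 2 of 12 measured were higher, both for histidine. The gene of imidazole glycerol phosphate synthase, his4, read 13.92 in the deletion, 13.74 in the adapted and 12.70 in the wild-type culture and was 2.33-fold higher, and his3, the histidinol phosphate aminotransferase gene, read 13.43 in the deletion, 13.26 in the adapted and 12.75 in the wild-type culture. The histidinol dehydrogenase gene his2 and the tryptophan gene trp1 had differences of 0.56 and 0.56, both outside the threshold.

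The remaining synthesis genes came from other branches. The prephenate dehydratase gene pha2, an aromatic gene of phenylalanine synthesis that was in no list, read 12.14 in the deletion, 12.00 in the adapted and 11.40 in the wild-type culture. The isopropylmalate synthase gene leu3, which commits a branched-chain precursor to leucine, read 13.90 in the deletion, 13.67 in the adapted and 13.26 in the wild-type culture and was the 1 higher gene among 6 measured branched-chain genes. Asparagine synthetase, encoded by asn1, read 14.38 in the deletion, 14.21 in the adapted and 13.76 in the wild-type culture. In contrast, none of 12 measured genes of sulfate assimilation and of methionine and cysteine synthesis passed the rule in either direction, with differences from -0.38 to 0.38 and a median of 0, whose sign varied with the scaling (-0.060 with quantile normalization repeated and 0.020 with the intensity trend removed). In all 12 synthesis genes the adapted array lay between the deletion and wild-type arrays, whose order the size rule fixed.

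**Figure D2:**
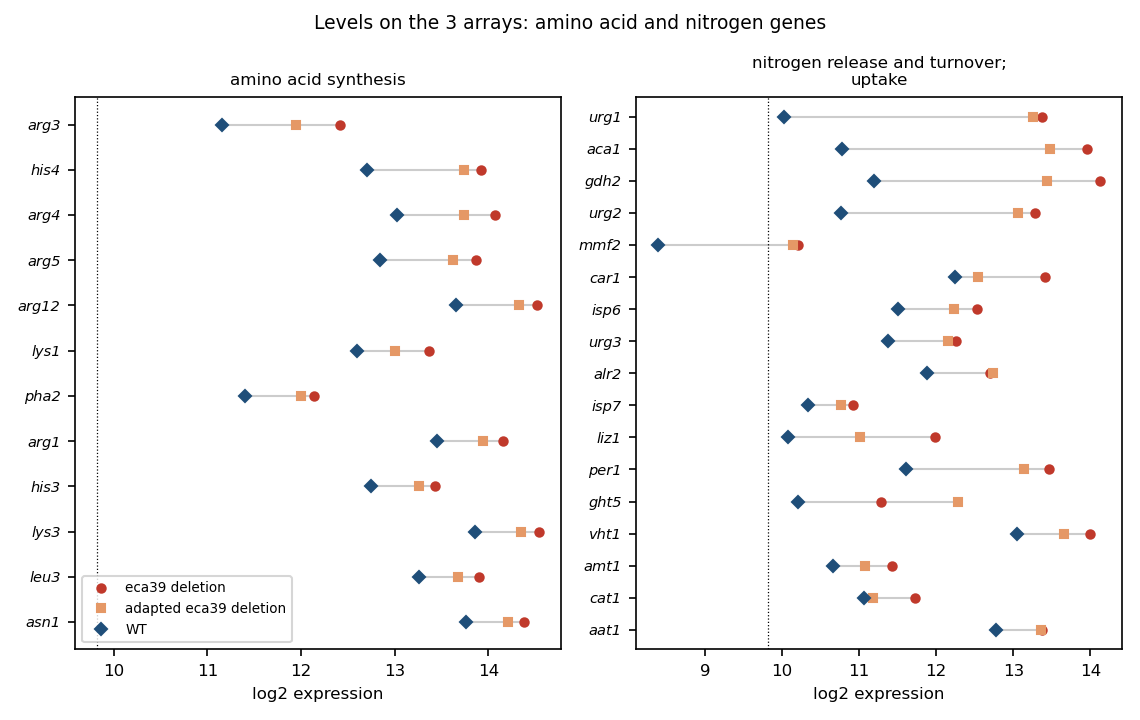
Log2 level on the deletion (circle), adapted (square) and wild-type (diamond) arrays, 1 array each, for the 12 called genes of amino acid synthesis at left and the 17 of nitrogen release, turnover and uptake at right, with the brightness limit dotted. The adapted array lies between the others in most rows, and ght5 and alr2 are highest on the adapted array. The size rule that picked the genes fixes the deletion array above wild type.

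The 10 called genes sorted under nitrogen release and turnover ranged in difference from 0.59 to 3.35. This loose group takes in aca1, mmf2 and the uracil-inducible urg genes, and urg1 sets its top value. The gene of the NAD-dependent glutamate dehydrogenase, gdh2, which releases ammonium from glutamate, read 14.12 in the deletion, 13.43 in the adapted and 11.19 in the wild-type culture. A slightly larger difference was that of aca1, named for an acetyltransferase of the toxic proline analogue azetidine-2-carboxylic acid, at 13.96 in the deletion, 13.48 in the adapted and 10.78 in the wild-type culture. The alanine racemase gene alr2 read 12.69 in the deletion, 12.74 in the adapted and 11.88 in the wild-type culture, with both mutant arrays above wild type and the adapted one slightly the higher. The protease gene isp6 and isp7, for a dioxygenase-like protein, are both known from nitrogen starvation, and isp6 read 12.53 in the deletion, 12.23 in the adapted and 11.50 in the wild-type culture. The difference of isp7 was 0.59, the smallest of all higher genes.

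The uracil-inducible genes stood apart from the genes of pyrimidine synthesis. The level of urg1 was 13.38 in the deletion, 13.26 in the adapted and 10.03 in the wild-type culture, and that of urg2, for a uracil phosphoribosyltransferase-like protein, was 13.28 in the deletion, 13.06 in the adapted and 10.76 in the wild-type culture. The third gene of the group, urg3, differed less, with 12.26 in the deletion, 12.15 in the adapted and 11.38 in the wild-type culture. Among the 6 other pyrimidine genes measured none passed the rule. Of these ura4 stood at 0.05 and ura1 at -0.03, ura5 at -0.14 and the uracil permease gene fur4 at -0.23, and ura2 and ura3 at -0.30 and -0.32. Both measured members of the RidA family, whose proteins break down reactive imine and enamine intermediates of amino acid metabolism, were above wild type. Of these mmf2 was higher, with 10.21 in the deletion, 10.14 in the adapted and 8.40 in the wild-type culture, though its wild-type reading lay below the brightness limit. Its paralogue mmf1 read 14.78 in the deletion, 14.62 in the adapted and 14.21 in the wild-type culture and lay just under the threshold.

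Uptake genes made up another 7. Of 14 measured amino acid and peptide permease genes 3 were higher, namely per1 at 13.47 in the deletion, 13.14 in the adapted and 11.61 in the wild-type culture, the cationic amino acid permease gene cat1 at 11.72 in the deletion, 11.19 in the adapted and 11.07 in the wild-type culture, and aat1 at 13.37 in the deletion, 13.36 in the adapted and 12.77 in the wild-type culture. For cat1 the adapted and wild-type levels were close, while for aat1 both mutant arrays were level. The isp5 and avt5 genes differed by 0.74 and 0.69 but were dim on both arrays. The ammonium transporter gene amt1 was higher, with 11.43 in the deletion, 11.07 in the adapted and 10.66 in the wild-type culture. Vitamin transporters gave 2 of 13 members in a list that also holds thiamine genes, with 10 of the 13 at the brightness limit. The pantothenate transporter gene liz1 read 11.98 in the deletion, 11.01 in the adapted and 10.08 in the wild-type culture, and vht1, the biotin transporter gene, read 13.99 in the deletion, 13.66 in the adapted and 13.04 in the wild-type culture. The biotin synthase gene bio2 was higher as well, at 13.01 in the deletion, 12.88 in the adapted and 12.32 in the wild-type culture. The hexose transporter gene ght5 read 11.29 in the deletion, 12.28 in the adapted and 10.21 in the wild-type culture, and here the adapted array was the highest.

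The higher genes included 8 sorted as kinases and regulators, at 1.59-fold to 3.28-fold, with no count of all measured genes of that kind. The amino acid shortage kinase gene gcn2 read 11.74 in the deletion, 11.12 in the adapted and 10.56 in the wild-type culture, a 2.27-fold difference. The other eIF2 kinase genes were dim and not called, hri1 with 8.37 in the deletion, 8.39 in the adapted and 8.50 in the wild-type culture and hri2 with 9.29 in the deletion, 9.17 in the adapted and 9.52 in the wild-type culture. Gcn2 was the 1 called member among 21 genes of target of rapamycin (TOR), tuberous sclerosis complex (TSC) and eIF2 kinase signalling, and in that list tor2 read 10.87 on all 3 arrays and tor1 had a difference of -0.13. The cyclin gene pas1, whose product acts with the kinase Pef1 in the start of the cell cycle, read 13.21 in the deletion, 12.85 in the adapted and 11.49 in the wild-type culture. The Greatwall-family kinase gene ppk18 read 11.23 in the deletion, 11.05 in the adapted and 10.45 in the wild-type culture and the kinase gene oca2 10.72 in the deletion, 10.40 in the adapted and 10.02 in the wild-type culture.

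Of the remaining regulators, pap1, the gene of the transcription factor of the peroxide response, read 12.21 in the deletion, 11.83 in the adapted and 11.54 in the wild-type culture. The meiosis regulator gene mei2 read 10.11 in the deletion, 11.72 in the adapted and 9.16 in the wild-type culture, with the adapted array well above the others. The gene git7, for a Sgt1-family protein of glucose and cyclic AMP signalling, read 10.71 in the deletion, 10.43 in the adapted and 9.90 in the wild-type culture. The inositol phosphate kinase gene ipk1 read 10.83 in the deletion, 9.87 in the adapted and 9.93 in the wild-type culture, where the adapted array was level with wild type. Ubiquitin genes gave 3 higher members of 54 measured, a share not far from the background. They were the ubiquitin protease genes ubp11, at 11.74 in the deletion, 11.57 in the adapted and 10.15 in the wild-type culture, and ubp8, a component of the SAGA complex, at 9.94 in the deletion, 9.79 in the adapted and 9.29 in the wild-type culture, and the conjugating enzyme gene ubc8, at 11.27 in the deletion, 10.96 in the adapted and 10.48 in the wild-type culture.

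**Figure D3:**
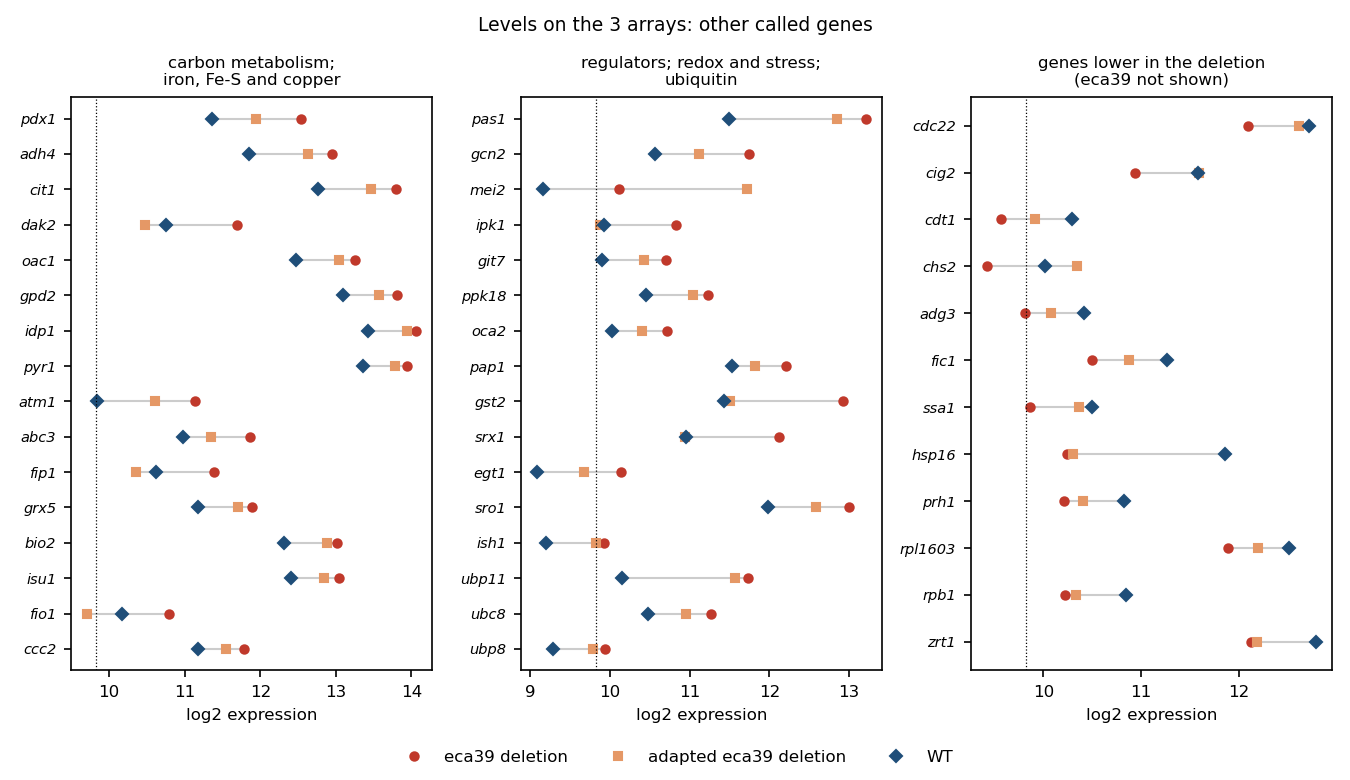
Log2 level on the deletion (circle), adapted (square) and wild-type (diamond) arrays, 1 array each, for called genes of carbon metabolism and metals at left, of regulators, redox, stress and ubiquitin in the middle, and for 12 genes lower in the deletion at right, with the brightness limit dotted. For gst2, srx1, ipk1 and cig2 the adapted and wild-type symbols nearly coincide, and for dak2, fip1 and fio1 the adapted array is the lowest.

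Carbon metabolism was represented by enzymes around pyruvate, citrate and oxaloacetate. The gene of the protein X component of the pyruvate dehydrogenase complex, pdx1, read 12.53 in the deletion, 11.94 in the adapted and 11.36 in the wild-type culture, a 2.26-fold difference. Other genes of that complex were above wild type without passing the rule, with differences of 0.50 for dld1, 0.47 for lat1, 0.34 for pda1 and 0.18 for pdb1. The citrate synthase gene cit1 read 13.80 in the deletion, 13.47 in the adapted and 12.76 in the wild-type culture. Together pdx1 and cit1 were the 2 higher genes of 42 measured for the tricarboxylic acid cycle and respiration, a share not far from the background of 3.67%. The median difference of this list was -0.0036, or 0.054 with the intensity trend removed. The pyruvate carboxylase gene pyr1 read 13.95 in the deletion, 13.78 in the adapted and 13.36 in the wild-type culture, oac1, for the mitochondrial carrier of oxaloacetate, read 13.26 in the deletion, 13.04 in the adapted and 12.47 in the wild-type culture, and idp1, for the NADP-dependent isocitrate dehydrogenase, read 14.06 in the deletion, 13.94 in the adapted and 13.42 in the wild-type culture. In these genes the adapted array again lay between the 2 arrays that the size rule had set apart.

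Glycerol metabolism gave 2 further genes. The glycerol-3-phosphate dehydrogenase gene gpd2 read 13.81 in the deletion, 13.57 in the adapted and 13.09 in the wild-type culture. The dihydroxyacetone kinase gene dak2 read 11.69 in the deletion, 10.48 in the adapted and 10.75 in the wild-type culture, and its adapted level was the lowest of the 3. The alcohol dehydrogenase gene adh4 read 12.95 in the deletion, 12.63 in the adapted and 11.85 in the wild-type culture. None of 13 measured genes of glycolysis and fermentation was called, and the large difference of eno102, 1.97, rested on dim readings of 9.10, 8.21 and 7.12 in the deletion, adapted and wild-type cultures.

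Iron genes were called on both the side of uptake and that of iron-sulfur clusters. In the iron list 5 of 18 measured genes were higher, the median difference was 0.46, and 15 of the 18 reached the brightness limit. The 5 were atm1, isu1, fip1, fio1 and abc3. Atm1 exports an iron-sulfur intermediate from mitochondria, and its gene read 11.14 in the deletion, 10.60 in the adapted and 9.84 in the wild-type culture, a 2.46-fold difference. The scaffold gene isu1, on whose product the clusters form, read 13.04 in the deletion, 12.84 in the adapted and 12.40 in the wild-type culture, and outside the list the mitochondrial glutaredoxin gene grx5, whose product helps pass them on, read 11.89 in the deletion, 11.71 in the adapted and 11.18 in the wild-type culture. Other cluster assembly genes lay above wild type without passing, isa1 with a difference of 0.50, isa2 with 0.45 and isd11 with 0.57. Isd11 was in no list and was named after its value was seen.

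The surface iron uptake pair behaved alike across arrays. The iron permease gene fip1 read 11.39 in the deletion, 10.35 in the adapted and 10.62 in the wild-type culture, and the ferroxidase gene fio1 read 10.80 in the deletion, 9.71 in the adapted and 10.18 in the wild-type culture. For both genes the deletion array was the highest and the adapted array the lowest. The vacuolar transporter gene abc3 read 11.86 in the deletion, 11.35 in the adapted and 10.98 in the wild-type culture. Outside the list, the copper ATPase gene ccc2, whose product loads copper onto the ferroxidase, read 11.79 in the deletion, 11.55 in the adapted and 11.17 in the wild-type culture. Other uptake genes of the list were not called, among them the siderophore synthesis gene sib1 at 0.46, frp1 at -0.07 and str1 at -0.18, and str3 at 0.61 but dim.

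The called redox genes did not include the main peroxide enzymes. Of 23 measured genes of peroxide and glutathione defence 22 reached the brightness limit and 3 were higher, pap1 among them. This share is above the 3.67% of all named genes at the limit, but the list was chosen with earlier results of these data known. The share is therefore a description only. The glutathione transferase gene gst2 read 12.92 in the deletion, 11.51 in the adapted and 11.43 in the wild-type culture, and the sulfiredoxin gene srx1, whose product reactivates an overoxidised peroxiredoxin, read 12.13 in the deletion, 10.94 in the adapted and 10.96 in the wild-type culture. In both genes the deletion array stood alone and the adapted and wild-type arrays were close. The catalase gene ctt1 had a difference of -0.04 and the glutathione peroxidase gene gpx1 one of 0.21. The ergothioneine synthesis gene egt1 read 10.14 in the deletion, 9.68 in the adapted and 9.09 in the wild-type culture, below the brightness limit in wild type. The sro1 gene read 13.00 in the deletion, 12.58 in the adapted and 11.98 in the wild-type culture and ish1, for a protein of the nuclear envelope, read 9.93 in the deletion, 9.83 in the adapted and 9.21 in the wild-type culture.

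**Figure D4:**
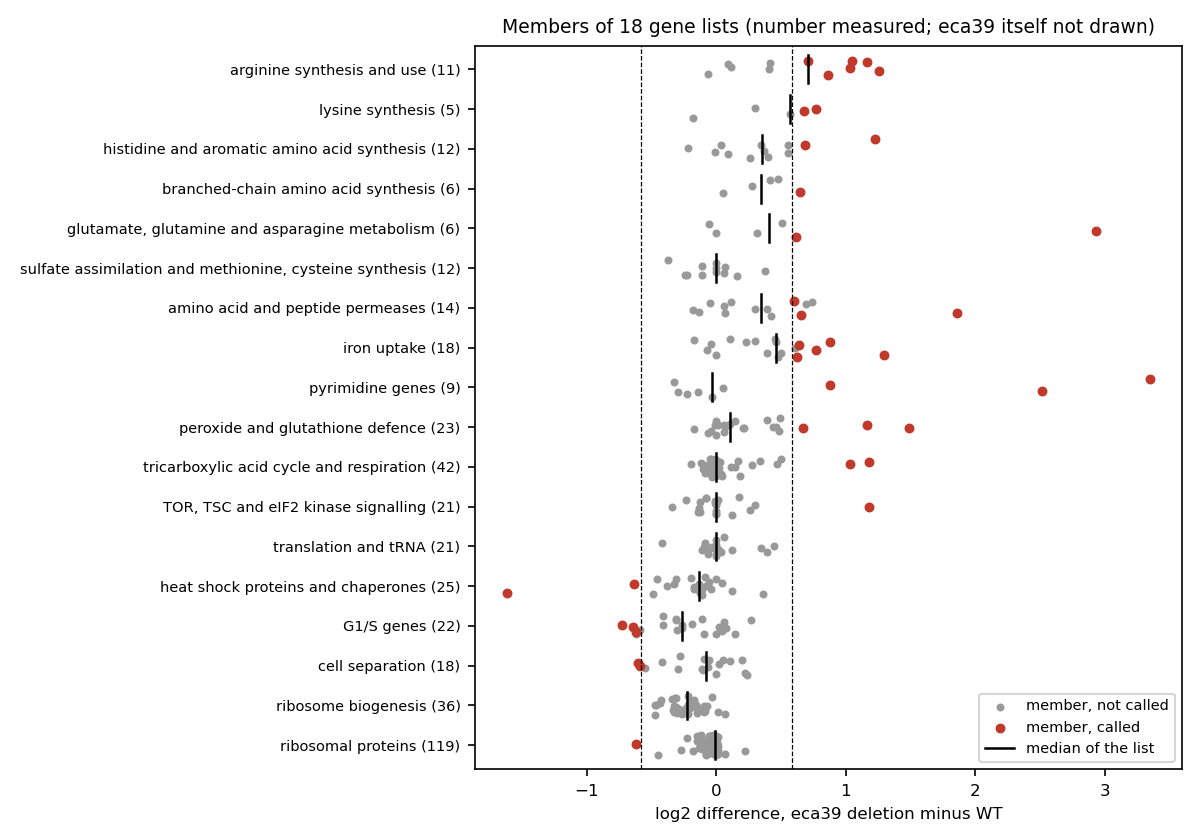
Each point is the log2 difference (deletion minus wild type) of 1 measured gene, in rows of gene lists with the number measured in brackets, and black bars mark the list medians. Called members are red, dashed lines mark 1.5-fold, eca39 itself is not drawn but counts in the branched-chain median, and grey points beyond the lines are dim. Arginine, lysine and iron genes lie mostly to the right, while sulfate assimilation and respiration genes lie around 0.

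The other higher genes have varied functions. The largest differences of all named genes were those of aes1, with 14.08 in the deletion, 13.65 in the adapted and 10.61 in the wild-type culture, and mug14, with 10.70 in the deletion, 9.29 in the adapted and 7.33 in the wild-type culture. The wild-type reading of mug14 was in the lowest 10% of the table. Genes of chromosomes and microtubules gave 4 members, the chromosome maintenance gene smc5 (0.86), the replication factor gene psf2 (0.69), the tubulin cofactor gene alp21 (0.73) and the kinetochore gene dad1 (0.63). In metabolism the purine gene ade7, the 1 called gene of 13 for purine synthesis, read 13.57 in the deletion, 13.45 in the adapted and 12.76 in the wild-type culture, and the phosphatase gene pho2 read 13.94 in the deletion, 13.73 in the adapted and 13.26 in the wild-type culture. A probe set that the platform names pho1 now matches the non-coding RNA nc-pho1 and read 14.51 in the deletion, 14.68 in the adapted and 13.67 in the wild-type culture, and which transcript it measures is uncertain.

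The differences of 8 more genes lay between 0.59 and 0.91. They were 0.91 for meu18, 0.78 for sfc2 (a transcription factor of 5S ribosomal RNA genes), 0.75 for ppr8 (a mitochondrial pentatricopeptide protein), 0.69 for the metacaspase gene pca1 and 0.68 for mdm34 (a tether of mitochondria to the endoplasmic reticulum). Those of bxi1, ats1 and aif1 were 0.65, 0.63 and 0.59, and bxi1 is of the Bax inhibitor family, ats1 an acetyltransferase gene and aif1 the gene of an apoptosis-inducing factor homologue. For bxi1 and aif1 the adapted array was slightly the highest, and for meu18, sfc2, ppr8 and ats1 it was nearer to wild type than to the deletion.

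Besides eca39, 12 named genes were lower, and only hsp16 among them differed more than 2-fold. The gene of this small heat shock protein read 10.24 in the deletion, 10.30 in the adapted and 11.86 in the wild-type culture, so both mutant arrays were low. Ssa1, encoding a cytosolic Hsp70, read 9.86 in the deletion, 10.37 in the adapted and 10.49 in the wild-type culture, with the adapted array close to wild type. In the list of heat shock proteins and chaperones 2 of 25 measured genes were lower and 21 lay below 0, with a median of -0.14. Over all named genes 1287 of 2899 lay below 0. Uncalled members with the lowest values were psi1 at -0.49 and mdj1 at -0.46, both for Hsp40 partners of Hsp70, and sti1 at -0.39.

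Cell cycle genes that act at the G1/S transition gave 3 lower members of 22 measured, 15 of them at the brightness limit, and a median of -0.27. Cdt1, which loads the replicative helicase, had a gene level of 9.56 in the deletion, 9.91 in the adapted and 10.30 in the wild-type culture. The S-phase cyclin gene cig2 read 10.94 in the deletion, 11.60 in the adapted and 11.58 in the wild-type culture and cdc22, the large subunit gene of ribonucleotide reductase, read 12.10 in the deletion, 12.62 in the adapted and 12.72 in the wild-type culture. The adapted levels of cig2 and cdc22 were close to wild type, and that of cdt1 lay in the middle. The listed genes rad21 (-0.62) and ste6 (-0.59) were dim. In a bulk culture, fewer cells at a stage of the cell cycle and less RNA per cell cannot be told apart.

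A further 3 lower genes act at the septum or the contractile ring. Chs2, a chitin-synthase-like protein of the septum, had a gene level of 9.42 in the deletion, 10.34 in the adapted and 10.02 in the wild-type culture, with the adapted array the highest. The cell wall gene adg3 read 9.81 in the deletion, 10.07 in the adapted and 10.42 in the wild-type culture, and fic1, for a protein of the contractile ring, read 10.50 in the deletion, 10.87 in the adapted and 11.27 in the wild-type culture. Of 18 measured cell separation genes 2 were lower, while adg1 (-0.56) and the glucanase gene eng1 (-0.42) did not pass. The list median was -0.081, with 11 members below 0 and 6 above, and fic1 was not in the list.

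The last 4 lower genes were single cases. The zinc transporter gene zrt1 read 12.13 in the deletion, 12.19 in the adapted and 12.79 in the wild-type culture, low on both mutant arrays. The gene of the largest subunit of RNA polymerase II, rpb1, read 10.22 in the deletion, 10.33 in the adapted and 10.84 in the wild-type culture, and the RNA helicase gene prh1 read 10.21 in the deletion, 10.41 in the adapted and 10.82 in the wild-type culture. Among 119 measured ribosomal protein genes only rpl1603 was called, at 11.89 in the deletion, 12.19 in the adapted and 12.51 in the wild-type culture, which is near the background of 0.612%. None of 36 ribosome biogenesis genes was called, although 34 lay below 0, against 1287 of all 2899 named genes. Their median was -0.23, or -0.18 with the intensity trend removed.

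Other lists shared members with the groups above or had none called. Of 18 measured nitrogen starvation genes, 16 of them at the brightness limit, 4 were higher (amt1, isp6, isp7 and mei2). The isp6 gene was also the 1 higher gene of 22 for autophagy and vacuolar proteases, with 11 of the 22 at the limit. The list of glutamate, glutamine and asparagine metabolism had 2 higher of 6, gdh2 and asn1, with a median of 0.41. In the core stress list, with 17 of 21 at the limit, 3 were higher (gst2, ish1 and sro1) and 1, hsp16, was lower. Copper and zinc genes gave adh4 higher and zrt1 lower of 11, 8 of them at the limit. Cyclins and cell cycle regulators gave pas1 and ppk18 of 21, 11 of them at the limit. Hexose and glycerol genes gave dak2 and ght5 of 22, of which only 11 reached the brightness limit. Meiotically upregulated genes gave mug14 and meu18 of 115, of which only 30 reached it. No member was called among 4 genes for serine, threonine and proline, 11 histone, 31 sterol and fatty acid, or 21 translation and transfer RNA genes. None was called either among 11 adhesin, 23 mating and 16 wtf genes, but only 6, 6 and 1 of these reached the brightness limit. All 16 wtf genes, a family of similar sequences that probes may not tell apart, lay above 0, with a median difference of 0.47. That median fell to 0.12 with quantile normalization repeated and to 0.30 with the intensity trend removed.

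Some called genes are neighbours on the chromosome. Of 1695 pairs of adjacent protein-coding genes with both members named and measured, 934 had both at the brightness limit and 7 had both called. In 6 of these 7 pairs both genes were higher. They were urg2 with urg3, urg3 with urg1, fip1 with fio1, alr2 with aat1, abc3 with mug14, and ade7 with meu18. Both urg pairs contain urg3, so the 7 pairs are not all separate cases. Of named genes at the limit 3.67% were higher and 0.612% lower, and the number of pairs to expect from these shares was not worked out. The pair of alr2 and aat1 is separated from abc3 and mug14 by a single gene, pfl7, with no single-named probe set, so that 4 of 5 genes in a row were higher. The seventh pair went opposite ways, grx5 being higher and cig2 lower. Near the deleted gene, its neighbours nup107 and pho4 were not called (-0.06 and -0.17), and arg12 stands 3 genes away, beyond apq12, which read 12.50 on all 3 arrays.

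**Figure D5:**
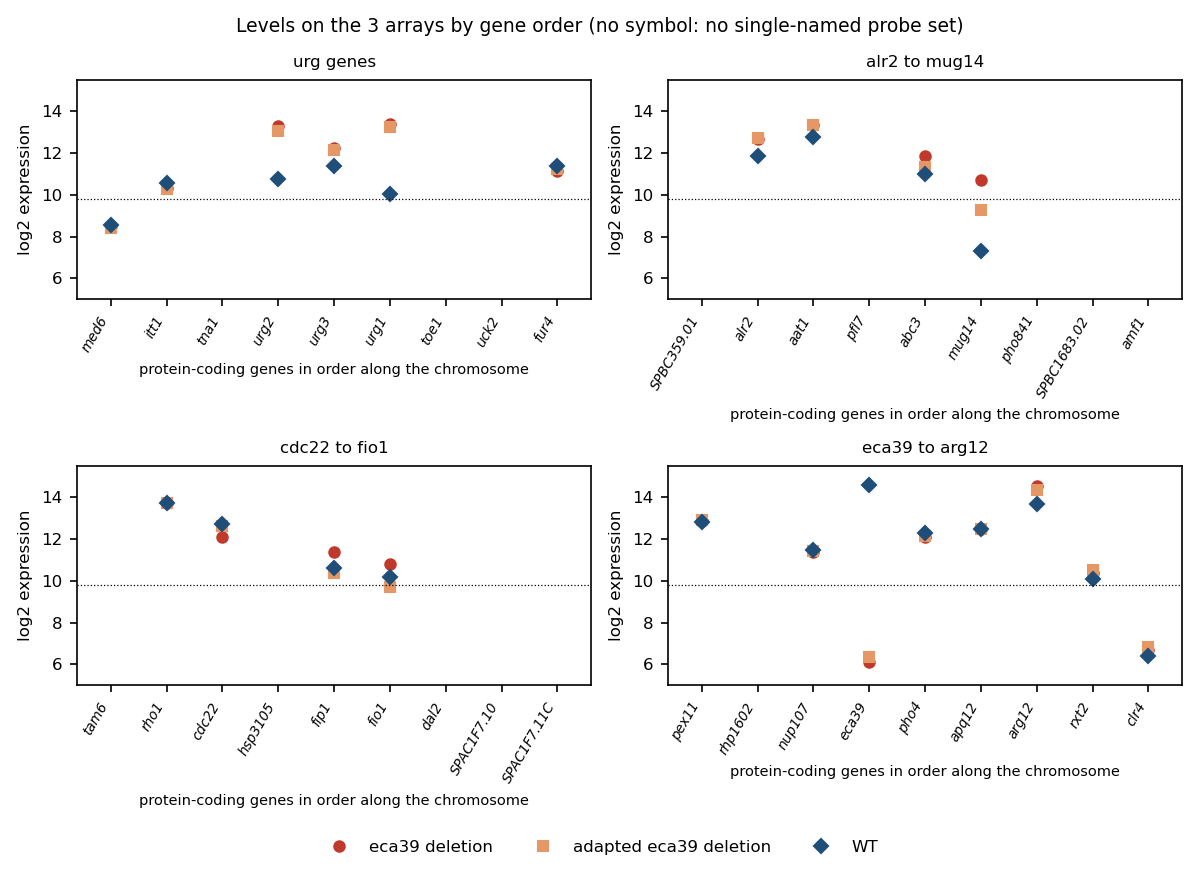
Log2 level on the deletion (circle), adapted (square) and wild-type (diamond) arrays for protein-coding genes in chromosomal order around 4 sites, with the brightness limit dotted. The 3 urg genes stand above wild type, fip1 and fio1 are highest in the deletion and lowest in the adapted culture, and next to eca39 the levels of nup107 and pho4 nearly coincide.

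Genes at the edge of the rule had differences close to each other. Just inside stood isp7, pyr1 and aif1 at 0.59 each, and just outside wtf14 at 0.58, dsc5 at 0.57 and its8 at 0.57. On the lower side prh1, adg3 and chs2 had -0.62, -0.61 and -0.59, while snd1, adg1 and ght2 had -0.57, -0.56 and -0.55. Repeating quantile normalization put aat1, aif1, asn1, bxi1, fio1, isp7, pyr1 and ubp8 under the threshold, and removing the intensity trend did so for aif1, cdc22 and rpl1603. Rescaling also brought uncalled genes past the threshold, and 87 named genes were higher with the trend removed. Of the 78 higher genes 11 were below the brightness limit in wild type, and of the 13 lower ones 4 were below it in the deletion. Each of the 91 genes rests on 1 probe set.

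Much of the difference lies outside the named genes. Of the probe sets without a single name, 119 were higher, 55 of them at least 2-fold and 25 at least 3-fold, against 27 named genes at least 2-fold higher. The median of these 119 was 1.95-fold. The largest difference among them was 20.9-fold, where the probe set read 12.51 in the deletion, 11.74 in the adapted and 8.12 in the wild-type culture. The 9 unnamed probe sets that were lower reached at most 2.08-fold. A further 71 named genes differed upward by 1.5-fold or more but were too dim to be called, against 5 downward, and at the 10th percentile of mean level the intensity trend alone amounted to 0.17.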

How the data were processed

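Total RNA of 3 cultures was extracted with acid phenol and RNeasy columns and labelled with the Affymetrix 3' IVT Express kit, per the labels' protocols. The deposited values are log2 expression values that the authors computed by RMA, with affy as the named tool, per the submitters' processing notes. RMA quantile-normalizes arrays, so a shift of most transcripts would be hidden, and its median polish can give differences of exactly 0. Base 2 was assumed for the logarithm because RMA writes it, and the table spans 2.99 to 15.17. No tool version, genome build or probe set filter is named in these sources.

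Genes were named through the platform annotation, an older naming in places. Of 4999 probe sets 2917 had 1 name, 20 several and 2062 none, and 2914 matched a RefSeq gene table (ASM294v3), used for names and gene order only. Probe sets of 1 gene were averaged, which gave 4981 features. The deletion minus wild-type difference was described by the size rule in Python 3.11.15 with pandas 2.3.3. The code of the rule was run on simulated data with planted shifts larger than the threshold in bright features. That check does not measure array error. Every named gene that passed was described, beside at most 4 uncalled members of each of 36 gene lists and the 3 genes on each side of the threshold. The arginine, pyrimidine, pyruvate dehydrogenase and iron genes are given with more uncalled members, and isd11, tor1, tor2, hri1, ctt1, gpx1, frp1 and str1 were also named after their values were seen. The members and lists were chosen with earlier results of these data known. Entries for aes1, car1 and mug14 were taken out of 3 lists (translation, vitamin transport, nitrogen starvation) because their roles did not belong there, and mam3 was left out of the P-type markers. Promoter motifs were not analysed here.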

Additional observations from a re-analysis of the deposited data

Results flagged for a closer look

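For 7 called genes the deletion and adapted arrays lay on opposite sides of the wild-type array, which both comparisons share. This difference was not tested, since each culture has 1 array. On the log2 scale, srx1 differed from wild type by 1.17 in the deletion and by -0.016 in the adapted culture. The differences of dak2 were 0.94 and -0.27, and those of ipk1 were 0.90 and -0.054 in the same order. For the iron uptake pair they were 0.77 and -0.27 (fip1) and 0.62 and -0.47 (fio1). Among lower genes they were -0.59 and 0.33 for chs2, and -0.65 and 0.015 for cig2. For srx1, ipk1 and cig2 the adapted value was within 0.1 of wild type. The part of plate history in these values cannot be told apart from that of adaptation.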

How the results depend on the processing

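The counts moved mainly with the fold threshold. At 2-fold, 82 features were higher and 3 lower, and 27 and 2 of them were named genes. At 3-fold these were 36 and 2 features and 11 and 2 named genes. Without a brightness limit 365 features and 149 named genes were higher, against 197 and 78. The counts stayed within 1.5 times under a limit at the 10th or 50th percentile, repeated quantile normalization, removal of the intensity trend, and use of the brightest probe set. The limit at the 50th percentile took out 11 higher genes (aif1, alp21, bxi1, egt1, ish1, mei2, mmf2, psf2, sfc2, smc5 and ubp8) and 4 lower ones (adg3, cdt1, chs2 and ssa1). Repeated quantile normalization took out 8 higher genes (aat1, aif1, asn1, bxi1, fio1, isp7, pyr1 and ubp8). Removal of the trend took out aif1, cdc22 and rpl1603. Both rescalings also brought in genes that had not been called, which are not listed here. With the trend removed 87 named genes were higher and 11 lower, against 78 and 13. With quantile normalization repeated the numbers were 70 and 15. No called gene changed sign under the 2 rescalings, the only alternatives that could change one. Dim genes read lower on the wild-type array, and the trend was 0.17 at the 10th percentile of mean level. Between scalings the sign of the median differed for 16 of 36 lists (a median of 0 under 1 scaling included), among them the pyrimidine, purine, sulfate, TOR, core stress, copper and zinc, respiration, cyclin, ribosomal protein and meiotic lists. No paired analysis was possible because each group has 1 array.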
